A study of Homo sapiens with 6 samples.

Results

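The mitochondrial ribosomal protein genes were the 77 genes of the deposited table whose symbol is MRPL or MRPS followed by a number and, in a few, a letter from A to C. They make up 77 of the 32692 genes listed, with 49 named for the large subunit (MRPL) and 28 for the small subunit (MRPS). MRPS12 was not analysed here. RNA was measured in DU145, a human prostate carcinoma cell line known for lacking the androgen receptor, after 24 h with 5 µM OTI-611 in 3 libraries or with DMSO, the solvent, for 24 h in the other 3. The series is about targeting CHD1L, a chromatin remodelling enzyme, and neither group is described as carrying a genetic change. Whether the 3 samples of a group were separate cultures is not stated, so each p-value reflects the spread among the samples at hand, which may be technical.

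Mitochondria keep their own ribosome, which translates the few proteins encoded by mitochondrial DNA, all of them core subunits of the respiratory chain and the ATP synthase. Its RNAs come from mitochondrial DNA, but every one of its proteins is encoded in the nucleus, made in the cytosol and imported. Some of these proteins descend from those of the bacterial ribosome and others are found only in mitochondria.

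The start sites of 7 members with large changes are shown here because 1 short motif recurs in some of them, and MRPL46 is added because it lies head to head with MRPS11, which fell. The sequences are from RefSeq on GRCh38.p14, written 5′ to 3′ on the strand of the gene, from 100 bases before the start to 30 bases after it, or to 35 after it where a motif lies there. Capitals mark AAGATGGCG, the core of the site that the transcription factor YY1 binds, and in MRPL51 they mark GGGGCGGGG, the box that SP and KLF factors bind. MRPS30, MRPS10 and MRPL9 were higher with OTI-611, and MRPS17, MRPL50, MRPL51 and MRPS11 were lower. MRPL10, MRPS5 and MRPL2 rose further than MRPL9 and are not shown. MRPL10 and MRPL2 had no promoter window. The window of MRPS5 does not spell the YY1 letters, but neither does that of MRPL9, so the letters do not explain this choice.
MRPS30, chr5:44808847-44808981, plus strand: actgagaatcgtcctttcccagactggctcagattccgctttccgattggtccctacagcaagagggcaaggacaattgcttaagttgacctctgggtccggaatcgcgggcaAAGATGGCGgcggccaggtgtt
MRPS10, chr6:42217827-42217961, minus strand: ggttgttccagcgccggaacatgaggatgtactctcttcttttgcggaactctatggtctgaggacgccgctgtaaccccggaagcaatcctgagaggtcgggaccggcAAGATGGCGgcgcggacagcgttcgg
MRPL9, chr1:151763467-151763596, minus strand: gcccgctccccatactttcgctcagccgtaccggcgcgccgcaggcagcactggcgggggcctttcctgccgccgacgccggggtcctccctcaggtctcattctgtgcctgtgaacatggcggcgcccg
MRPS17, chr7:55951777-55951906, plus strand: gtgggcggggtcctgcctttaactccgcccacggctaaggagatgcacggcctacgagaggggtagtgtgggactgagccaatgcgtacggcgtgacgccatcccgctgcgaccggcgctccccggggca
MRPL50, chr9:101398584-101398718, minus strand: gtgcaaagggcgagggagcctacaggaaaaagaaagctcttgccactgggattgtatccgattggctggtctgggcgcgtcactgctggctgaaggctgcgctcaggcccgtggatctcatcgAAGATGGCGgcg
MRPL51, chr12:6493233-6493362, minus strand: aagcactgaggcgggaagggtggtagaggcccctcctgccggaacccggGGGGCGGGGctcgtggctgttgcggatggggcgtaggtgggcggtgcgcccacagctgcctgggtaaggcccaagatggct
MRPS11, chr15:88467608-88467737, plus strand: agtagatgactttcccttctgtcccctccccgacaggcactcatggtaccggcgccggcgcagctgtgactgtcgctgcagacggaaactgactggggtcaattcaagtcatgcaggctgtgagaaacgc
MRPL46, chr15:88467354-88467488, minus strand: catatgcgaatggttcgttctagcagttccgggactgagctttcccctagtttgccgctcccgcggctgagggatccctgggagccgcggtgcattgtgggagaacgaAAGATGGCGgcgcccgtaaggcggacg

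The capitals fall within the first bases of the transcript in MRPS30, MRPS10, MRPL50 and MRPL46, and the motif itself is not spelled in the stretches shown for MRPL9, MRPS17, MRPL51 and MRPS11. A member that rose (MRPS30) and a member that fell (MRPL50) therefore share the same letters near the start. In the gene models of GENCODE v29, MRPS11 begins at chr15:88467453 and MRPL51 at chr12:6493841, both outside the stretches shown. The sequences at those starts are not shown, so the absence of the YY1 letters in these genes holds for the RefSeq starts only.

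The deposited values were taken as RPKM, reads per kilobase of gene scaled to the depth of the library, which can be compared between genes. They summed to between 303084 and 314127 per library. From the steps between low values, 5 libraries were estimated at 30500000 to 37500000 reads, and the column DMSO 1 gives no such estimate because it holds whole numbers only. In the library DMSO 2 the tested members then rested on an estimated 215 reads (MRPL46) to 7674 reads (MRPS7), with a median of 2132. The epithelial markers KRT8, KRT18, EPCAM and CDH1 were all present, with CDH1 at 4.40 ± 0.40 RPKM in control and 1.54 ± 0.15 in treated cells (SD, n = 3), and the markers KLK3, PTPRC, PECAM1 and COL1A2 were at or below 0.0595 RPKM in every library. The first principal component, which held 82.3% of the variance, separated the groups. CHD1L was listed at 0, 0.662 and 0.691 RPKM with DMSO and at 0.585, 0.792 and 0.546 with OTI-611, too low to be tested.

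Members moved in both directions, and by modest amounts. Of the 77 members, 72 had a mean of at least 1 RPKM over the 6 libraries and were tested, 46 of the large and 26 of the small subunit. With OTI-611, 23 of them rose and 31 fell (limma on log2(RPKM + 1), Benjamini-Hochberg adjusted p under 0.05 over all genes), which is 75% of the tested members against 65.2% of the 11978 genes tested. In each direction, 31.9% of the members rose against 27.8% of all genes, and 43.1% fell against 37.3%. With each library rescaled to its median log ratio, 26 members rose and 25 fell, against 33.3% and 33.2% of all genes (66.5% called). Leaving out DMSO 1 gave 18 higher and 32 lower, against 26.3% and 41.9% of all genes. The median log2 fold change of the tested members was -0.055 against -0.054 over all genes. Log2 fold changes here are on the log2(RPKM + 1) scale, which understates the change of genes near 1 RPKM.

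In size, the members' changes ran from -0.69 for MRPS17 to 0.66 for MRPS30. The median absolute log2 fold change was 0.189 for the members, against 0.266 over all genes. It was 0.0825 for 82 protein-coding genes picked by a symbol pattern for cytosolic ribosomal proteins. That pattern also matches the RPS6KA kinase genes and misses RPSA, so the list is not the cytosolic ribosome alone. Only 5 of the 72 members (6.94%) moved by more than 0.5 on the log2 scale, against 22.8% of all genes. In 57 of the 72 the DMSO and OTI-611 libraries did not overlap, 26 of them higher and 31 lower. Of all genes 70.2% were so separated, 30.5% higher and 39.7% lower. The genes picked by the cytosolic ribosome pattern gave 22 higher and 15 lower calls, 45.1% of those tested.

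**Figure D1:**
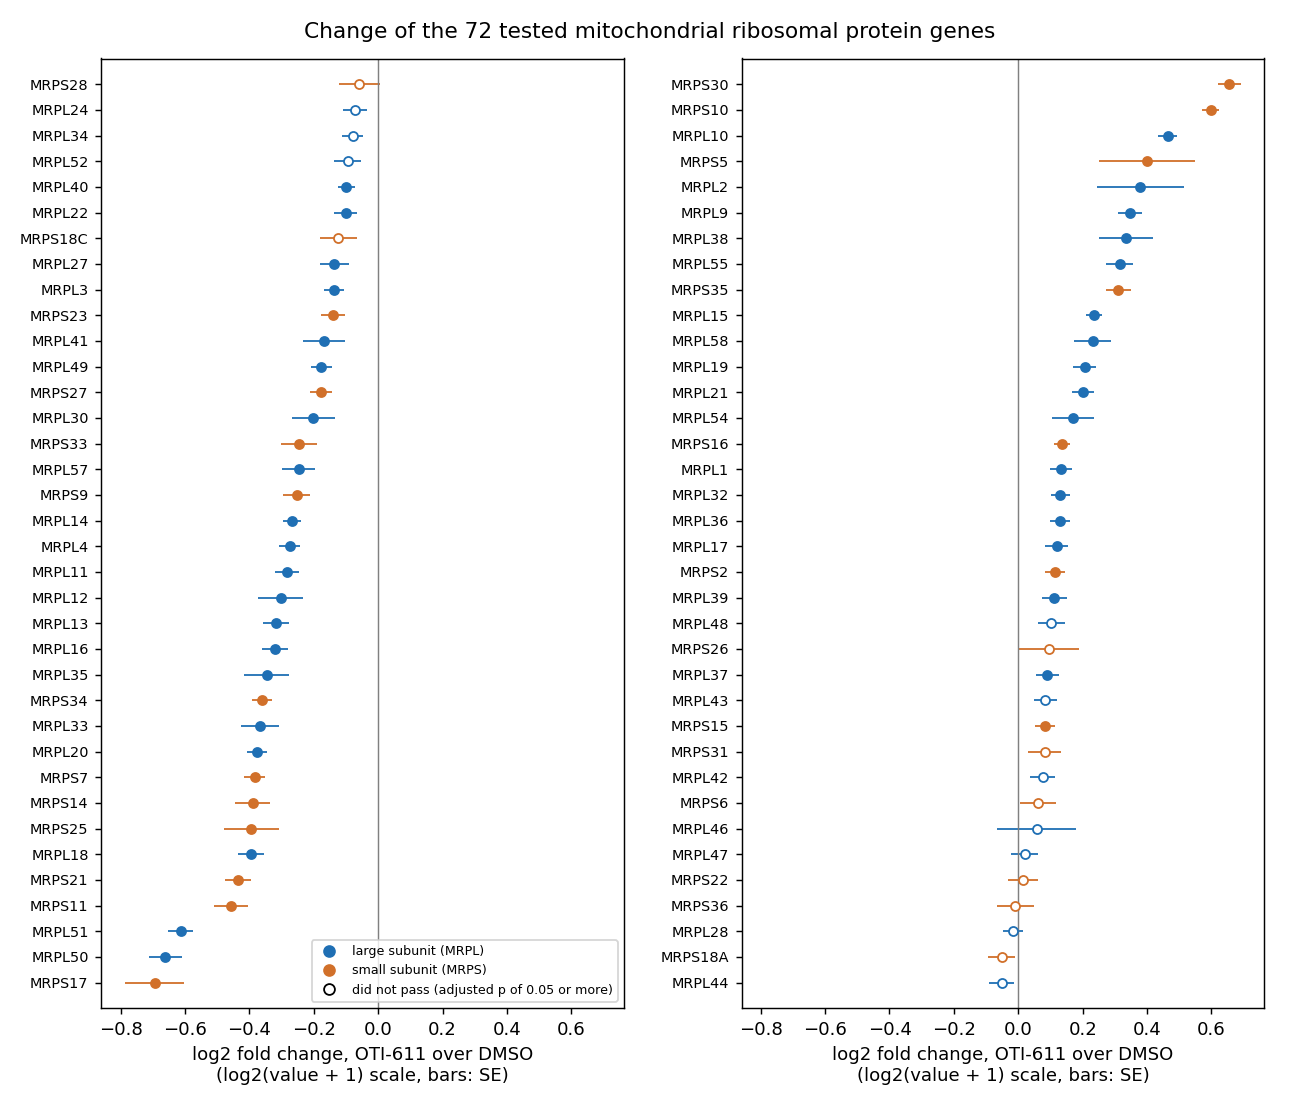
Log2 fold change of each tested member (points, on the log2(RPKM + 1) scale) with its standard error (bars), sorted from MRPS17 at -0.69 to MRPS30 at 0.66. Blue is the large subunit and orange the small one, and open points did not pass. Both colours lie on both sides of 0.

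Both subunits held members that rose and members that fell, and a difference between the subunits was not tested. In the large subunit 16 of 46 tested members rose, 20 fell and 10 fell short of the threshold. Its median log2 fold change was -0.063. In the small subunit 7 of 26 rose, 11 fell and 8 fell short of it, around a median of -0.055. With the same rescaling, 19 large subunit members rose and 15 fell, and 7 and 10 in the small subunit. The names do not follow the structure in every case. MRPS30 and MRPS18A are built into the large subunit, and MRPS36 is a subunit of the α-ketoglutarate dehydrogenase complex. Placed by structure, 17 of 48 large subunit members rose and 20 fell, and 6 of 23 small subunit members rose and 11 fell.

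Descent was also compared. Among the 42 tested members classed as having a counterpart in the bacterial ribosome, 16 rose and 20 fell. Among the 29 classed as found only in mitochondria, 7 rose and 11 fell. The share called was 85.7% in the former and 62.1% in the latter, against 65.2% of all genes, and the difference between these shares was not tested. MRPS28 and MRPS18A, a paralogue of bacterial S18, are counted with the latter. Neither passed, so placing them with the former would change the numbers tested and the shares but not the numbers of calls. MRPL55, which rose (log2 fold change 0.315, limma adjusted p = 0.000137), is counted with the former but has no bacterial counterpart. Placing it with the latter would move its rise there and change both shares.

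In the small subunit the furthest fall was in MRPS17, the counterpart of bacterial S17, an RNA-binding protein of the body of the subunit. It stood at 5, 5.98 and 5.14 RPKM with DMSO and at 3.20, 3.10 and 2.53 with OTI-611, 1.83-fold lower (log2 fold change -0.69 ± 0.092 SE, limma adjusted p = 0.000132). All 3 treated libraries lay below all 3 controls. The gene lies at chr7:55951819-55956501 in GENCODE v29, and 27.0% of its exon bases are shared with a readthrough gene, so its reads could be split between them.

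MRPS11, the counterpart of bacterial S11 on the platform of the subunit, read 8, 7.62 and 8.14 RPKM with DMSO and 5.63, 5.59 and 5.26 with OTI-611, 1.44-fold lower (log2 fold change -0.46 ± 0.053 SE, limma adjusted p = 5.39e-05). MRPS21, the counterpart of bacterial S21, went from 89, 91.04 and 89.3 RPKM to 69.7, 67.2 and 61.7, 1.36-fold lower (-0.44 ± 0.042 SE, limma adjusted p = 1.50e-05). Neither showed any overlap between the groups, and MRPS21 fell from the highest mean of the small subunit in control cells.

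MRPS25, found only in mitochondria, read 4, 4.24 and 4.58 RPKM with DMSO and 3.23, 3.20 and 2.63 with OTI-611 (log2 fold change -0.39 ± 0.086 SE, limma adjusted p = 0.00297). MRPS14, the counterpart of bacterial S14 in the head of the subunit, went from 16, 15.4 and 17.3 RPKM to 12.4, 12.6 and 11.4 (-0.39 ± 0.053 SE, limma adjusted p = 0.000161). In both, every treated library was below every control library. The other small subunit members that fell were MRPS7, MRPS34, MRPS9, MRPS33, MRPS27 and MRPS23, with log2 fold changes from -0.38 (MRPS7) to -0.14 (MRPS23). MRPS7 was at 74.4 ± 2.1 RPKM in control cells and 56.8 ± 1.7 in treated cells (SD, n = 3).

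MRPS10, the counterpart of bacterial S10 in the head of the subunit, rose to the highest mean of any member in treated cells. It went from 78, 76.2 and 77.7 RPKM to 118.6, 119.0 and 114.7, 1.52-fold higher (log2 fold change 0.60 ± 0.025 SE, limma adjusted p = 1.24e-07). The groups were far apart relative to their spread, at 77.3 ± 0.98 and 117.4 ± 2.4 RPKM (SD, n = 3). Its gene, at chr6:42206801-42217865, shares no exon bases with another gene in GENCODE v29.

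MRPS5, the counterpart of bacterial S5, was among the members with the lowest levels and read 1, 1.80 and 1.94 RPKM with DMSO and 2.24, 2.44 and 2.40 with OTI-611. The rise was 0.40 ± 0.15 SE on the log2 scale (limma adjusted p = 0.0399), and 0.23 (limma adjusted p = 0.0275) without DMSO 1, the lowest library and the one with whole numbers only. The call was lost without OTI-611 1 (limma adjusted p = 0.0704), OTI-611 2 (0.105) or OTI-611 3 (0.101), and also with no filter on low values (0.206) or without the mean-variance trend (0.0540). The other small subunit members that rose were MRPS35 (38.3 ± 0.80 to 47.8 ± 2.4 RPKM, SD, n = 3), MRPS16, MRPS2 and MRPS15, with log2 fold changes of 0.31, 0.14, 0.11 and 0.08. MRPS15 kept its call only when DMSO 3 was the library left out.

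MRPS30 carries a small subunit name but sits in the large subunit, where it is found only in mitochondrial ribosomes. It showed the highest rise of any member. It read 26, 26.8 and 25.8 RPKM with DMSO and 39.97, 42.98 and 42.6 with OTI-611, 1.60-fold higher (log2 fold change 0.66 ± 0.036 SE, limma adjusted p = 4.82e-07). The lowest treated library lay well above the highest control, and the gene, at chr5:44808925-44820428, shares no exon bases with another.

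In the large subunit MRPL50 and MRPL51, both found only in mitochondria, fell furthest. MRPL50 read 17, 16.6 and 17.0 RPKM with DMSO and 11.1, 10.3 and 9.61 with OTI-611, 1.64-fold lower (log2 fold change -0.66 ± 0.051 SE, limma adjusted p = 4.11e-06). MRPL51 went from 118, 116.2 and 119.6 RPKM to 81.2, 72.6 and 76.7, 1.54-fold lower (-0.61 ± 0.038 SE, limma adjusted p = 1.10e-06). All treated libraries lay below all controls in both. MRPL51 had the highest mean of any member in control cells and lost 41.1 RPKM.

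MRPL51 shares 31.3% of its exon bases with NCAPD2, a condensin subunit gene next to it. NCAPD2 read 80, 81.7 and 78.5 RPKM with DMSO and 60.8, 57.7 and 59.7 with OTI-611 (log2 fold change -0.42 ± 0.029 SE, limma adjusted p = 1.91e-06). Both genes fell, and how the shared bases were counted is not given in the sources used here, so its part in the fall of MRPL51 was not tested. MRPL50, at chr9:101387633-101398614, shares none.

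MRPL18, which sits in the central protuberance of the large subunit and is known to carry 5S RNA into mitochondria, read 83, 81.7 and 84.8 RPKM with DMSO and 66.9, 59.96 and 62.4 with OTI-611 (log2 fold change -0.39 ± 0.039 SE, limma adjusted p = 1.94e-05). The groups did not overlap. The other large subunit members that fell were MRPL20, MRPL33, MRPL35, MRPL16, MRPL13, MRPL12, MRPL11, MRPL4, MRPL14, MRPL57, MRPL30, MRPL49, MRPL41, MRPL3, MRPL27, MRPL22 and MRPL40, from -0.37 (MRPL20) to -0.10 (MRPL40) on the log2 scale. The groups overlapped in MRPL30 and MRPL41, and MRPL41 passed narrowly (limma adjusted p = 0.0481). With rescaling to the median log ratio, MRPL41, MRPL3, MRPL27, MRPL22 and MRPL40 lost their calls, as did MRPS23. MRPL20 was at 35.2 ± 0.33 RPKM in control cells and 26.9 ± 0.72 in treated cells, and MRPL16 was at 64.5 ± 1.5 and 51.6 ± 2.9 (SD, n = 3).

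The base of the stalk, where translation factors bind, held members that moved apart. MRPL10, which anchors the stalk, read 29, 29.95 and 30.02 RPKM with DMSO and 42.1, 41.0 and 40.8 with OTI-611, 1.39-fold higher (log2 fold change 0.46 ± 0.029 SE, limma adjusted p = 1.12e-06). MRPL11, its neighbour at the stalk base, went from 39, 39.5 and 41.6 RPKM to 32.3, 31.8 and 34.1 (-0.28 ± 0.037 SE, limma adjusted p = 0.000122). MRPL12, the flexible stalk protein that MRPL10 holds, went from 15, 13.1 and 15.9 RPKM to 10.9, 11.7 and 12.3 (-0.30 ± 0.069 SE, limma adjusted p = 0.00378).

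The groups did not overlap in any of the 3 stalk members, and MRPL10 moved against MRPL11 and MRPL12. MRPL12 shares 68.2% of its exon bases with another gene model, the highest share of any member, so its value is uncertain, and its call was lost with no filter on low values. MRPL11 and MRPL12 were singled out after their values were seen.

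MRPL2, a core protein near the peptidyl transferase centre, stood at 2, 2.87 and 3.42 RPKM with DMSO and 4.14, 3.48 and 3.90 with OTI-611 (log2 fold change 0.38 ± 0.13 SE, limma adjusted p = 0.0329). The lowest treated library was just above the highest control, and without DMSO 1 the value was 0.22 and no longer passed (limma adjusted p = 0.0555). The call was also lost without DMSO 2, OTI-611 1 or OTI-611 3, with no filter, without the trend and with decimals dropped in all libraries, where the limma adjusted p lay between 0.0539 and 0.201. DMSO 1 was the lowest control library for both MRPL2 and MRPS5. The other large subunit members that rose were MRPL9, MRPL38, MRPL55, MRPL15, MRPL58, MRPL19, MRPL21, MRPL54, MRPL1, MRPL32, MRPL36, MRPL17, MRPL39 and MRPL37, from 0.35 (MRPL9) down to 0.09 (MRPL37).

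MRPL9 went from 58.5 ± 2.6 to 74.7 ± 2.4 RPKM and MRPL15 from 74.6 ± 1.2 to 87.9 ± 1.6 (SD, n = 3). MRPL58, a peptidyl-tRNA hydrolase that frees stalled ribosomes, went from 46.1 ± 4.4 to 54.2 ± 1.3 RPKM (log2 fold change 0.23 ± 0.058 SE, limma adjusted p = 0.00634), a call lost with no filter and with decimals dropped in all libraries. MRPL9 shares 38.5% of its exon bases with OAZ3, which read at most 0.773 RPKM in any library. Without DMSO 1, MRPL54, MRPL17, MRPL39 and MRPL37 were among the 6 members whose call was lost.

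**Figure D2:**
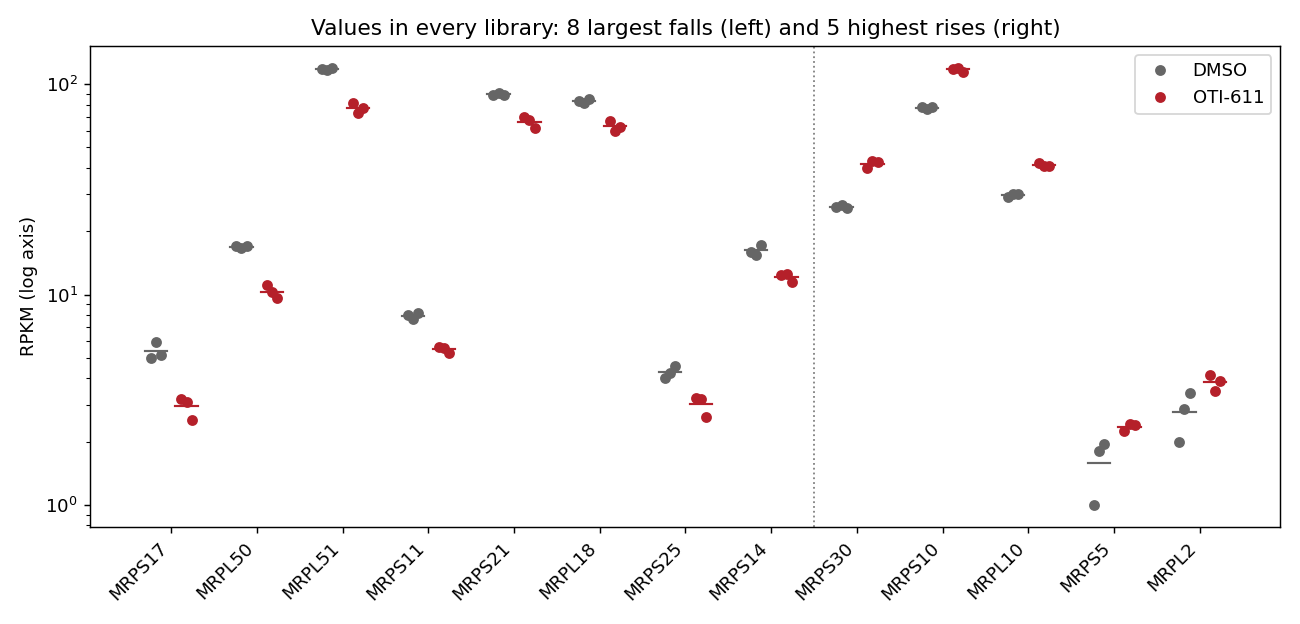
RPKM in each library (points, log axis) and group mean (lines) for the 8 members with the largest falls and the 5 with the highest rises. DMSO is grey and OTI-611 red. No member shown has overlapping groups, and MRPS5 and MRPL2 sit lowest with the widest spread among controls.

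The members that moved least had intervals that included 0, and most of these were no narrower than is typical of the tested members. MRPS36 read 11, 12.7 and 12.8 RPKM with DMSO and 12.3, 12.3 and 11.6 with OTI-611 (log2 fold change -0.0087, 95% interval -0.14 to 0.12). MRPS22, a mitochondria-specific small subunit protein, read 10, 10.03 and 10.4 against 10.2, 9.77 and 10.8 (0.015, interval -0.093 to 0.12). In both the groups overlapped.

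MRPL28, the counterpart of bacterial L28, read 34, 34.6 and 34.8 RPKM with DMSO and 32.9, 34.7 and 34.7 with OTI-611 (-0.016, interval -0.087 to 0.056). MRPL47, the counterpart of bacterial L29 at the exit of the peptide tunnel, read 45, 46.5 and 43.4 against 46.7, 42.9 and 47.2 (0.020, interval -0.075 to 0.11). The groups overlapped in both of these too. The others that did not pass were MRPL24, MRPL34, MRPL42, MRPL43, MRPL44, MRPL46, MRPL48, MRPL52, MRPS6, MRPS18A, MRPS18C, MRPS26, MRPS28 and MRPS31. Over the 18 that did not pass, the 95% intervals reached from -0.25 to 0.34 at most, and in 15 the interval lay within 0.25 of 0 on the log2 scale.

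MRPS18A, MRPS18B and MRPS18C are paralogues of bacterial S18 that occupy different places in the ribosome. MRPS18A read 20, 19.8 and 20.6 RPKM with DMSO and 19.2, 18.6 and 20.5 with OTI-611 (log2 fold change -0.051 ± 0.041 SE, limma adjusted p = 0.299). MRPS18C read 6, 6.38 and 6.49 against 5.92, 5.47 and 5.70 (-0.12 ± 0.057 SE, limma adjusted p = 0.0818). MRPS18A overlapped between the groups and MRPS18C did not. Without DMSO 1, MRPS18C passed, at -0.15 (limma adjusted p = 0.0335). MRPS18B was listed at 0 in all control libraries and at 0.0998, 0.0665 and 0 RPKM in the treated ones.

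The 5 members below a mean of 1 RPKM were MRPL23, MRPL45, MRPL53, MRPS18B and MRPS24. MRPL45, which tethers the ribosome to the inner membrane, read 0, 0.566 and 0.575 RPKM with DMSO and 0.483, 0.413 and 0.852 with OTI-611. MRPS24 reached at most 0.411 RPKM, MRPL23 at most 0.291 and MRPL53 at most 0.0461. These proteins are structural parts of the ribosome, and the table lists their genes near 0 while other members reach over 100 RPKM. MRPL53 shares 45.2% of its exon bases with CCDC142, and MRPS24 shares 23.2% with URGCP-MRPS24, so their reads could be split. MRPL23 shares 2.86%, and MRPL45 and MRPS18B share none. In DMSO 1, which holds whole numbers only, a 0 does not show what lay below 1. Whether these genes are silent was not tested. MRPL45 was the nearest member below the threshold and MRPL46 the nearest above it, at 1.09 RPKM over all libraries. Among 28 pseudogene rows of the family, 1 had a mean of at least 1 RPKM, MRPL45P2, which reached at most 1.55.

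Levels spanned 2 orders of magnitude among the tested members. In control cells they ran from 1.05 RPKM (MRPL46) to 117.9 (MRPL51), with a median of 25.5, and in treated cells from 1.13 (MRPL46) to 117.4 (MRPS10), with a median of 26.3. Large subunit members had a median of 32.6 RPKM in control cells and small subunit members 16.5. MRPL24, the counterpart of bacterial L24 by the peptide tunnel, read 117, 112.0 and 119.0 RPKM with DMSO and 115.4, 105.4 and 110.0 with OTI-611 (log2 fold change -0.073 ± 0.037 SE, limma adjusted p = 0.111). MRPL24 and MRPL51 overlapped in control cells, and MRPS10 overlapped in treated cells only with MRPL24, at its highest library.

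At the other end, MRPL38, a protein of the central protuberance, read 2, 2.25 and 2.04 RPKM with DMSO and 2.88, 2.94 and 2.90 with OTI-611 (log2 fold change 0.34 ± 0.083 SE, limma adjusted p = 0.00597). Its groups did not overlap, its call was lost with decimals dropped in all libraries, and 41.1% of its exon bases are shared with another gene model. MRPL46, which sits beside it in the protuberance, read 1, 1.10 and 1.06 against 1.19, 1.02 and 1.19 RPKM (0.057, 95% interval -0.22 to 0.34), with overlapping groups. Typical replicate spread was small, with a median within-group SD of 2.71% of the mean with DMSO and 3.78% with OTI-611.

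**Figure D3:**
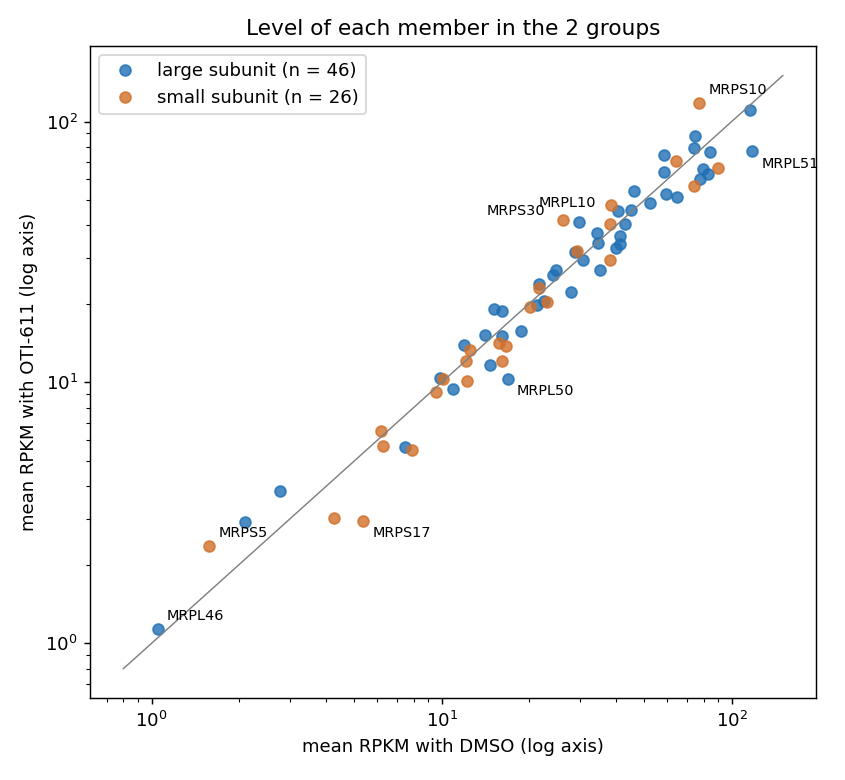
Mean RPKM of each tested member with DMSO (horizontal) and with OTI-611 (vertical), both on log axes, with the line of equal levels. Blue is the large subunit and orange the small one. Members lie close to the line over the whole range from 1.05 to 117.9 RPKM, with MRPS30, MRPS10 and MRPL10 above it and MRPL51, MRPL50 and MRPS17 below.

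Summed over all 77 members, the level was 2469 ± 33.6 RPKM in control and 2381 ± 34.7 in treated cells (SD, n = 3), a change of -3.59%. The totals over all genes were 303084, 313321 and 314127 with DMSO and 306142, 304260 and 305875 with OTI-611. The sums of the members were not rescaled to these totals. The large subunit sum went from 1767, 1792 and 1815 RPKM to 1718, 1659 and 1704, and the small subunit sum from 668, 678.3 and 687.1 to 697.4, 687.1 and 675.3. The large subunit groups did not overlap and the small subunit groups did. The small subunit sum by name differed by 8.84 RPKM, while MRPS10 alone rose by 40.1 and MRPS30 by 15.6. Placed by structure, with MRPS30 and MRPS18A counted in the large subunit and MRPS36 left out, the direction of the small subunit sum turned, from 619.3 ± 8.4 to 613.3 ± 12.7 RPKM (SD, n = 3), a change of -0.97% against 1.30% by name.

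The ratio of the 2 sums was 2.65, 2.64 and 2.64 with DMSO and 2.46, 2.41 and 2.52 with OTI-611. Placed by structure, the ratio was 2.97, 2.97 and 2.96 against 2.84, 2.81 and 2.94. Both ratios were lower in every treated library than in every control, by less when placed by structure. These ratios weight members by their RNA level and are not ratios of subunits.

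The members' change correlated with their coding length. Across the 72 tested members, Spearman's rank correlation between the log2 fold change and the longest coding part in GENCODE v29 was 0.42, against 0.094 across 10215 genes tested with a coding length of any size. The members span only 195 to 1449 coding bases, and the correlation over all genes within that range was not computed. It was 0.44 over the 46 large subunit members and 0.43 over the 26 small subunit members. These are correlations across genes of the same libraries, which share depth and normalization, and genes are not independent replicates. Over the alternatives that can reorder the fold changes it ran from 0.33 (a minimum mean of 5) to 0.45 (without OTI-611 1).

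The median coding length of the tested members was 609 bases. Of the 36 at or below it, 7 rose and 22 fell, among them MRPL51, MRPS17, MRPL50, MRPS21 and MRPS14. Of the 36 above it, 16 rose and 9 fell, with MRPS30, MRPL10, MRPS5 and MRPL2 among the rises and MRPS7 and MRPL16 among the falls. In the shorter members 61.1% fell, against 47.8% of all genes from 195 to 609 coding bases. In the longer members 25% fell, against 39.2% of all genes from there up to 1449 bases.

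Other features of the genes were set against the change in the same way. The number of exons gave a correlation of 0.40 across the members and 0.053 across all genes, while the whole transcript length gave -0.092. The correlation with GC content was 0.061, with the mean level 0.020 and with the share of exon bases held in common with another gene -0.17.

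**Figure D4:**
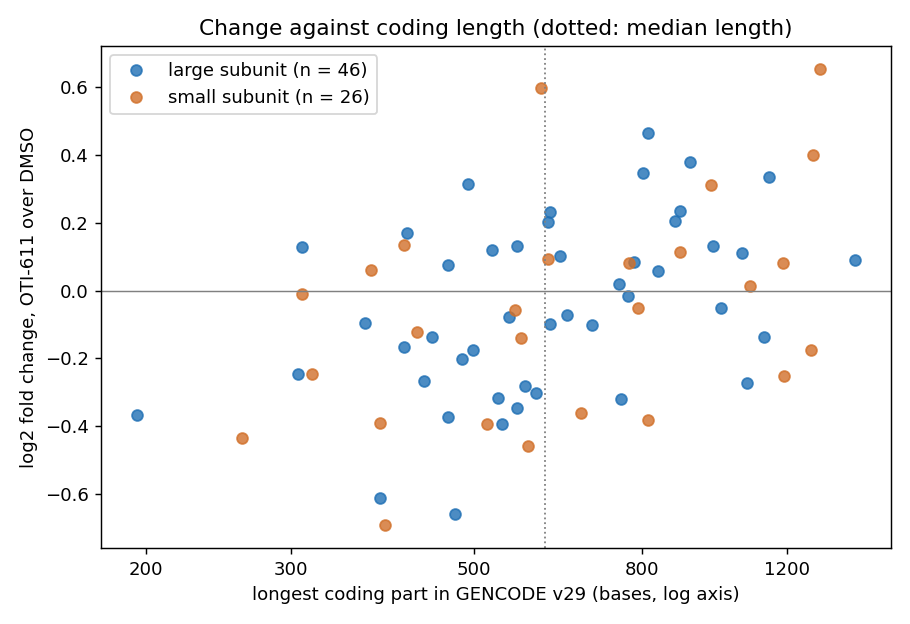
Log2 fold change of each tested member (vertical, log2(RPKM + 1) scale) against its longest coding part in bases (horizontal, log axis). Blue is the large subunit and orange the small one, and the dotted line marks the median of 609 bases. Most points left of the line are below 0, where 22 of 36 fell, and MRPS10 is the exception furthest from them.

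Promoter windows from RefSeq, 250 bases before to 50 after the start, matched 68 of the 77 members. MRPL2, MRPL10, MRPL13, MRPL15, MRPL21, MRPL23, MRPL35, MRPS28 and MRPS36 had none. Motifs were searched on both strands, and none of the letters searched lies inside another. A match is a description, not a site or a cause. The YY1 letters AAGATGGCG lay in the windows of 11 of 64 tested members (17.2%), against 5.11% of 8820 tested genes with a window and 1.75% of all windows.

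Counting the members that were not tested, the YY1 letters occurred 14 times in 13 genes. They read in the direction of the gene in 12 of the 14 and lay within the first 50 bases of the transcript in 10, as in the sequences of MRPS30, MRPS10, MRPL50 and MRPL46 above. Of the 11 tested members with the letters, 5 rose (MRPS30, MRPS10, MRPL38, MRPL32 and MRPL36), 2 fell (MRPL50 and MRPL22) and MRPL42, MRPL46, MRPL52 and MRPS18A did not pass. Their median log2 fold change was 0.076, against -0.12 for the 53 without, where 14 rose and 27 fell. Over all tested genes the median was 0.028 with the letters and -0.055 without, where 158 of the 451 genes with the letters rose and 136 fell. YY1 itself read 43, 43.7 and 42.8 RPKM with DMSO and 51.2, 52.1 and 50.2 with OTI-611 (log2 fold change 0.24 ± 0.027 SE, limma adjusted p = 4.60e-05), with no overlap.

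The ETS letters CCGGAAGT, which GABP binds, lay in the windows of 11 members (17.2%, against 10.8% of tested genes and 4.14% of all windows). Of these 11, only MRPL38 rose, 7 fell (MRPL51, MRPL18, MRPL20, MRPL16, MRPS34, MRPL3 and MRPL27) and 3 did not pass. Of the 53 members without the letters, 18 rose and 22 fell, and of all 956 tested genes with them 263 rose (27.5%) and 354 fell. GABPA, which carries the DNA-binding part of GABP, read 8.76 ± 0.27 RPKM in control and 8.46 ± 0.43 in treated cells (SD, n = 3, limma adjusted p = 0.449), and GABPB1, its partner, rose from 7.03 ± 0.041 to 10.99 ± 0.26 (log2 fold change 0.58 ± 0.043 SE, limma adjusted p = 3.13e-06).

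The letters GCGCANGCG of NRF1, a regulator of many nuclear genes for mitochondrial proteins, lay in 13 members (20.3%, against 18.3% of tested genes and 7.52% of all windows), with 3 higher and 7 lower. Of the 51 members without the letters, 16 rose and 22 fell, and of all tested genes with them 30.9% rose and 38.4% fell. NRF1 itself rose from 7.75 ± 0.65 to 11.04 ± 0.31 RPKM (SD, n = 3, log2 fold change 0.46 ± 0.060 SE, limma adjusted p = 0.000120). The GC box GGGGCGGGG lay in 17 (26.6%, against 34.0% of tested genes and 15.7% of all windows), with 4 higher and 9 lower, against 15 and 20 of the 47 members without it, and 29.6% and 38.5% of all tested genes with it. The letters TGATGNAAT, bound by C/EBP and ATF partners, lay in 1 member, MRPL55, against 0.646% of tested genes and 0.991% of all windows.

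Many members share a start region with a gene on the other strand. A protein-coding gene began within 1000 bases in the opposite direction from 17 of the 72 tested members (23.6%), against 10.3% of 10214 protein-coding genes tested. In 13 of the 17 the neighbour was tested too, and in 8 both genes passed. They moved the same way in 6, MRPL18 with TCP1, MRPL21 with IGHMBP2, MRPL27 with EME1, MRPL50 with ZNF189, MRPL57 with SKA3 and MRPS34 with EME2. They moved in opposite directions in MRPL36 with NDUFS6 and in MRPL30 with MITD1. How often both genes of such a pair passed or moved together over all genes was not computed, and 65.2% of all genes passed. MRPS11 and MRPL46 are both counted in the 13, each as the neighbour of the other. The calls of MRPL30, whose groups overlapped, and of MRPL27 were each lost without DMSO 2, DMSO 3, OTI-611 2 or OTI-611 3, with no filter and without the trend.

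MRPL36, the counterpart of bacterial L36, read 57, 58.2 and 60.4 RPKM with DMSO and 64.8, 62.1 and 65.3 with OTI-611. NDUFS6, a subunit of respiratory complex I that begins 34 bases away, read 200, 192.1 and 196.2 against 154.1, 143.1 and 152.5. The former was higher and the latter lower in every treated library. The difference between the 2 genes in log2(RPKM + 1) shifted by 0.51, with an exact two-sided permutation p of 0.10, the smallest that 3 against 3 libraries allow. Since the genes were already seen to separate in opposite directions, this p was fixed beforehand and adds nothing to the values.

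MRPS11 and MRPL46 are both members and lie head to head on chromosome 15, with their gene bounds 34 bases apart in GENCODE v29. MRPS11 fell while MRPL46 did not pass, and the difference between them shifted by -0.52. For MRPL30 and MITD1 the shift was -0.33. Each of these pairs also gave an exact permutation p of 0.10, and the adjusted p over the 3 pairs was 0.10. The pairs were chosen after their values were seen, so these p-values are no independent support for a difference within a pair.

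Genes that work with the members, regulators, and FOXO3 and BBC3 of the series title were compared in lists. In these 27 rose and 42 fell over 104 tested, or 32 and 31 with rescaling. Of all genes 27.8% rose and 37.3% fell, or 33.3% and 33.2% with rescaling, so the lists together lay near the background, and the counts of each list are read against the same shares. The proteins of the mitochondrial ribosome with other names gave 1 higher and 3 lower calls among 5. CHCHD1, a small subunit protein, fell from 37, 34.7 and 35.6 RPKM to 25.3, 22.1 and 25.2 (log2 fold change -0.55 ± 0.052 SE, limma adjusted p = 1.48e-05). DAP3, a GTP-binding protein of the small subunit, rose from 98.9 ± 1.1 to 111.1 ± 2.9 RPKM (SD, n = 3). PTCD3 and AURKAIP1 fell, with log2 fold changes of -0.22 and -0.15, and GADD45GIP1 did not pass.

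Of 17 mitochondrial translation factors tested, 7 rose and 2 fell. Initiation factors MTIF2 and MTIF3 rose by 0.48 and 0.31 on the log2 scale, as did OXA1L (0.26), which inserts newly made proteins into the inner membrane, and MTRES1 fell (-0.67). MTIF2 read 30, 29.35 and 28.98 RPKM with DMSO and 43.2, 41.8 and 39.1 with OTI-611. In 24 assembly and ribosomal RNA modification genes, 4 rose and 9 fell, with TRMT61B at -0.55, FASTKD2 at -0.50, RPUSD4 at -0.47 and GTPBP10 at 0.49.

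Of 22 genes for mitochondrial transcription and RNA stability, 4 rose and 12 fell. SUPV3L1, the helicase of the mitochondrial RNA degrading complex, rose (log2 fold change 0.86). PRORP, the nuclease that cuts the 5′ ends of mitochondrial transfer RNAs, fell from 7, 7.21 and 6.77 RPKM to 2.34, 2.67 and 2.26 (log2 fold change -1.22 ± 0.070 SE, limma adjusted p = 6.67e-07). HSD17B10, a further subunit of that nuclease, fell by 0.45 on the log2 scale, and ELAC2, which cuts the 3′ ends, by 0.38.

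Of 20 import and processing genes, 4 rose and 11 fell. The import motor chaperone HSPA9 and the matrix protease LONP1 rose by 0.93 and 0.86 on the log2 scale, while PMPCA, a subunit of the peptidase that removes import signals, and TIMM17A of the inner membrane channel fell by 0.79 and 0.64. HSPA9 read 131, 132.6 and 130.8 RPKM with DMSO and 252.0, 253.5 and 248.0 with OTI-611. The RNAs encoded by mitochondrial DNA were not analysed here.

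**Figure D5:**
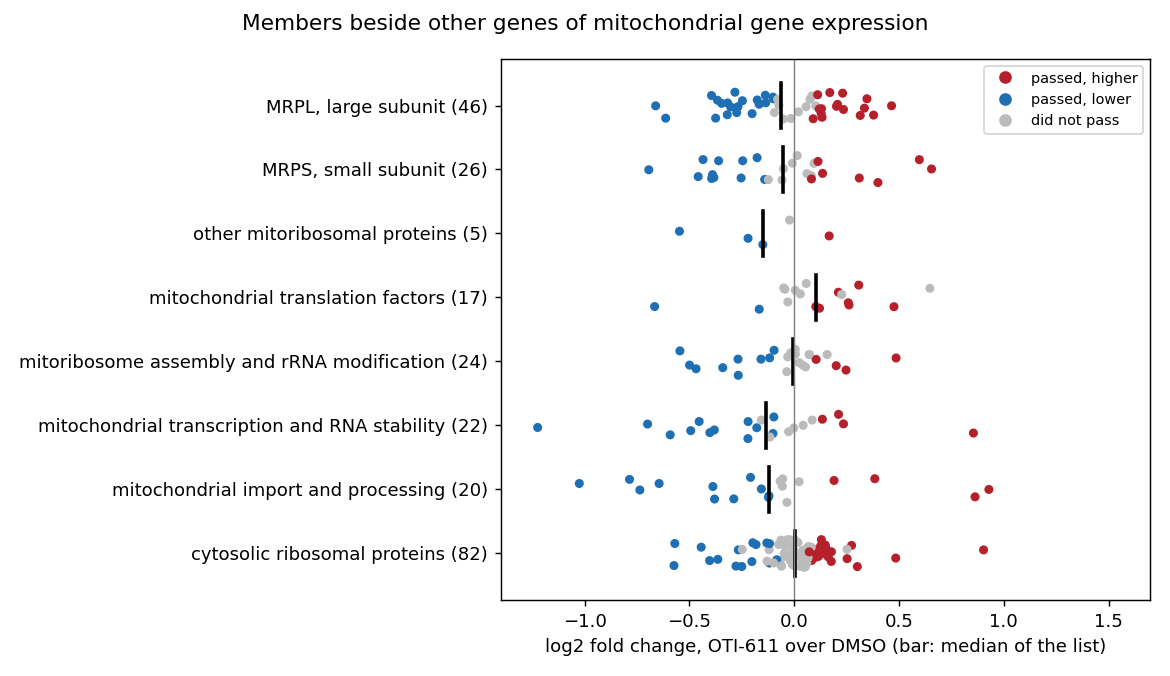
Log2 fold change (horizontal, log2(RPKM + 1) scale) of each tested gene in 8 lists, with the median of each list as a black bar and the number tested in brackets. Red passed and was higher, blue passed and was lower, grey did not pass. The members spread less widely than the transcription and import genes. The list labelled cytosolic ribosomal proteins, whose symbol pattern also matches kinase genes, clusters nearer 0 with a few exceptions.

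In the last list, of 16 tested genes, 7 rose and 5 fell. It holds regulators of nuclear genes for mitochondrial proteins and of the mitochondrial stress response. It also holds FOXO3 and BBC3, which were added because of the series title and are among the 7. DDIT3, a stress-response factor, rose from 17, 14.7 and 19.6 RPKM to 174.9, 169.2 and 163.1 (log2 fold change 3.24 ± 0.081 SE, limma adjusted p = 9.77e-09). MYC, a growth regulator, and FOXO3, a forkhead factor named in the title of the series, rose by 0.93 and 1.01, and OMA1, a stress-activated protease of the inner membrane, fell by 0.99. BBC3, the gene of PUMA, went from 1.17 ± 0.19 to 4.15 ± 0.12 RPKM (SD, n = 3, log2 fold change 1.25 ± 0.096 SE). In these same libraries the furthest change of any member was -0.69, in MRPS17.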

How the data were processed

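RNA from 6 DU145 samples was amplified by Geo-seq and made into libraries by transposition, per the labels. Cufflinks 2.1.1, TopHat2 2.0.9, HTSeq, CASAVA 1.7, FastQC and the mouse build mm10 are listed in the submitters' processing notes. All 32692 gene IDs are human, so the build the authors used is not given in the sources used here. The deposited table names no unit. The authors deposited 5 columns taken as RPKM, whose low values come in steps set by gene length (75.9% to 78.8% whole reads within 0.05), and FPKM cannot be told apart from it. The authors deposited the score values of DMSO 1 as whole numbers only, made by a step not given in the sources used here. These values were taken as RPKM in whole numbers and used beside the other columns. DMSO 1 lay 0.51 to 0.53 RPKM below the other DMSO libraries up to 50 RPKM, and 0.918 below from 50 to 200.

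Values were tested as log2(value + 1) with limma 3.58.1 in R 4.3.3 (group only, mean-variance trend, two-sided, Benjamini-Hochberg over 11978 genes with a mean of at least 1, threshold 0.05), after a check on simulated data. Depth was estimated from the steps and covers counting error only. Between libraries of 1 group, DMSO 1 left out, squared differences were 3.07 to 4.61 times what counting alone gives. This cannot tell separate cultures from technical repeats, and each library was used as its own sample. Gene bounds, coding lengths and shared exons are from GENCODE v29. Alternatives were other pseudocounts, filters and scalings, a fit without the trend, a replicate block, dropped decimals and leaving out each library. The members and lists were chosen with earlier results of these data known. By rule, the text names the 8 largest falls, the 5 highest rises, the 4 members that moved least, the 3 highest and 3 lowest levels, the paralogues of MRPS18, and up to 4 genes of each list with the smallest p.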

Additional observations from a re-analysis of the deposited data

How the results depend on the processing

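Of the 54 calls among members, 37 (14 higher and 23 lower) held in all 14 alternatives other than a minimum mean of 5, which tests only 66 members, and 0 turned direction in any of the 15. The members' median log2 fold change was -0.016 with no filter, -0.029 with quantile normalization and 0.0010 with rescaling to the median log ratio, where 26 members rose and 25 fell. The large subunit median was -0.016 with no filter and -0.00647 with rescaling, and the small subunit median -0.0031 with quantile normalization and 0.0014 with rescaling. The large subunit had 10 higher calls, against 16, with decimals dropped in all libraries. Over the related lists together, with 27 higher and 42 lower, the median was 0.010 with quantile normalization and 0.023 with rescaling, against -0.033. Leaving out 1 library at a time, 17 to 22 members were higher and 27 to 32 lower, and the small subunit median lay between -0.085 (without DMSO 1) and -0.023 (without OTI-611 2).

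A fit with the replicate number as a block gave 23 higher and 33 lower members and kept all 54 calls. Samples with the same number did not deviate together (correlations of 0.019, 0.00041 and -0.058). With 3 libraries a group and whole numbers in DMSO 1, this check cannot exclude that the numbers pair the samples. Whole numbers in DMSO 1 and the unstated unit limit what can be read from members near 1 RPKM, and the cause of each difference between settings was not tested.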
